A study of Mus musculus with 3 samples.

Results

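The RAB genes encode the largest branch of the Ras superfamily of small GTPases. They were taken here as all genes with at least 1 protein-coding transcript and a symbol made of Rab, a number and at most a letter and a digit. This gave 59 genes, on 18 chromosomes, of 21901 protein-coding genes and 55536 Ensembl genes in the tables. The data were total RNA-seq of the cytosolic fraction of macrophages grown from C57BL/6J mouse bone marrow and treated with Lipid A, the TLR4-binding part of lipopolysaccharide, at 100 ng/ml for 10 minutes. Each of 3 biological replicates gave 1 library from 1 µg of RNA that had been depleted of ribosomal RNA. Each library has 2 quantifications, 1 in tables with the layout of RSEM, used unless stated otherwise, and 1 with the layout of kallisto. The labels give all 3 the same donor identifier, record neither sex nor age, and leave unsaid if each was its own animal or culture, so p-values below speak only for these samples, whose spread may be technical. There were no untreated cells: every value is a level after treatment, and no comparison with another condition was possible.

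RAB proteins switch between a GTP-bound form, which recruits effectors such as tethers and motors to a membrane, and a GDP-bound form, which a GDP dissociation inhibitor keeps soluble in the cytosol. Exchange factors load GTP, GTPase-activating proteins end the active state, and a geranylgeranyl transferase adds lipid tails to cysteines at the C-terminus so that the protein can sit in a membrane. Each RAB marks a particular compartment. In macrophages they direct the uptake of particles and fluid, the maturation of phagosomes into degradative compartments, the recycling of receptors and the secretion of cytokines.

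The cysteine codons that can take these lipids stand at the end of the coding sequence. Their place differed between Rab7 and Rab7b and was shared within the Rab5, Rab8 and Rab11 sets, all of them sets with abundant members. For these 9 genes the last 30 coding bases are given from the GENCODE M21 transcripts on mm10, each from the protein-coding transcript with an annotated stop codon that had the highest TPM, with the stop codon at the end and the cysteine codons among the last 5 in capitals.
Rab7 (chr6:88000435-88000464, minus strand): aaggcctccgcagaaagcTGCagtTGTtga
Rab7b (chr1:131711668-131711697, plus strand): ccaggccagccaaagagcagaTGCTGCtga
Rab5a (chr17:53506400-53506429, plus strand): ccagccagaagccagTGTTGTagtaactga
Rab5b (chr10:128679530-128679559, minus strand): cagaacaagagccagTGTTGTagcaactga
Rab5c (chr11:100716047-100716076, minus strand): gccagccggagccagTGCTGCagcaactga
Rab11a (chr9:64716849-64716878, minus strand): ccaaaggtgcagTGCTGTcagaacatctaa
Rab11b (chr17:33747668-33747697, minus strand): aacaagctgcagTGCTGCcagagcctgtga
Rab8a (chr8:72180108-72180137, plus strand): accagcttcttccggTGCagtctcctgtga
Rab8b (chr9:66847719-66847748, minus strand): accagtttcttccgcTGTtctctgctttga
Rab7 and its paralog Rab7b ended differently, Rab7 with cysteines at the last and the third from last position and Rab7b with cysteines at both of the last 2 positions. The 3 Rab5 genes shared 1 pattern, a cysteine pair at the third and the fourth position from the end, the Rab11 genes shared a pair at the fourth and the fifth, and the Rab8 genes shared 1 cysteine at the fourth. Over all 59 genes, 20 had the pattern of Rab7, of which 10 reached 1 TPM in every library. A further 15 had both of the last 2, of which 13 reached it, and 9 had 1 cysteine at the fourth position, of which 6 reached it. The pair at the fourth and the fifth position was found in 6 genes, of which 3 reached 1 TPM. The pair at the third and the fourth was found in 5 genes, of which 4 reached it, and a pair at the second and the third in 3, of which 2 reached it. That transcript of Rab26 held no cysteine codon among its last 5, and Rab26 was below 1 TPM.

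Ensembl genes received 33825547, 54667365 and 43176007 estimated read counts in replicates 1, 2 and 3. RAB genes took 0.434%, 0.419% and 0.429% of them. At these depths 3 counts, the limit that a count of 0 allows, on a transcript of 1 kb equal 0.0450, 0.0294 and 0.0395 TPM (transcript share scaled to the library, allowing for length), counting error only. Protein-coding genes held 24.2%, 24.1% and 26.3% of all TPM. Of the 10 macrophage markers checked, which include Lyz2, Csf1r and Adgre1, all 10 passed 1 TPM in each library, with a median of 499 ± 34.2 TPM (SD, n = 3) and a summed level of 7923 to 9086 TPM. Of 6 neutrophil markers, S100a9 at 17.6 ± 4.01 TPM and S100a8 at 11.8 ± 2.86 TPM passed, Ly6g was at 0, and the sum was 21.9 to 35.2 TPM. Of 5 dendritic cell markers only Batf3 passed, at 1.53 ± 0.185 TPM, with a sum of 2.31 to 2.64 TPM. None of the 4 T and NK cell, 4 B cell, 4 mast cell, 4 stromal and 3 erythroid markers reached 1 TPM, their sums were at most 0.60 TPM, and the erythroid ones had no count. The part of any such cells in the RAB values was not tested.

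The macrophages expressed most of the family. In all, 38 of 59 RAB genes (64.4%) reached 1 TPM in all 3 libraries, called passing here, against 41.8% of all protein-coding genes. The median RAB gene stood at 6.50 ± 0.255 TPM (SD, n = 3), against 0.173 ± 0.015 TPM for all protein-coding genes. This level depends on the tables used, and was 2.93 ± 1.12 TPM in the kallisto-layout tables, in which protein-coding genes held 8.32% to 17.6% of all TPM. Among the genes that passed, the median was 15.7 ± 0.937 TPM, against 7.59 ± 0.437 TPM. Together the RAB genes summed to 973 ± 45.1 TPM, which was 0.391% ± 0.004 of the TPM of protein-coding genes. Among related small GTPases, 23 of 28 Arf and Arl genes (median of all 28, 11.5 TPM) and 14 of 21 Ras genes (median of all 21, 11.9 TPM) reached 1 TPM in every library. In bulk RNA, fewer cells with a transcript and less of it per cell cannot be told apart. RNA of the nucleus was not analysed here.

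**Figure D1:**
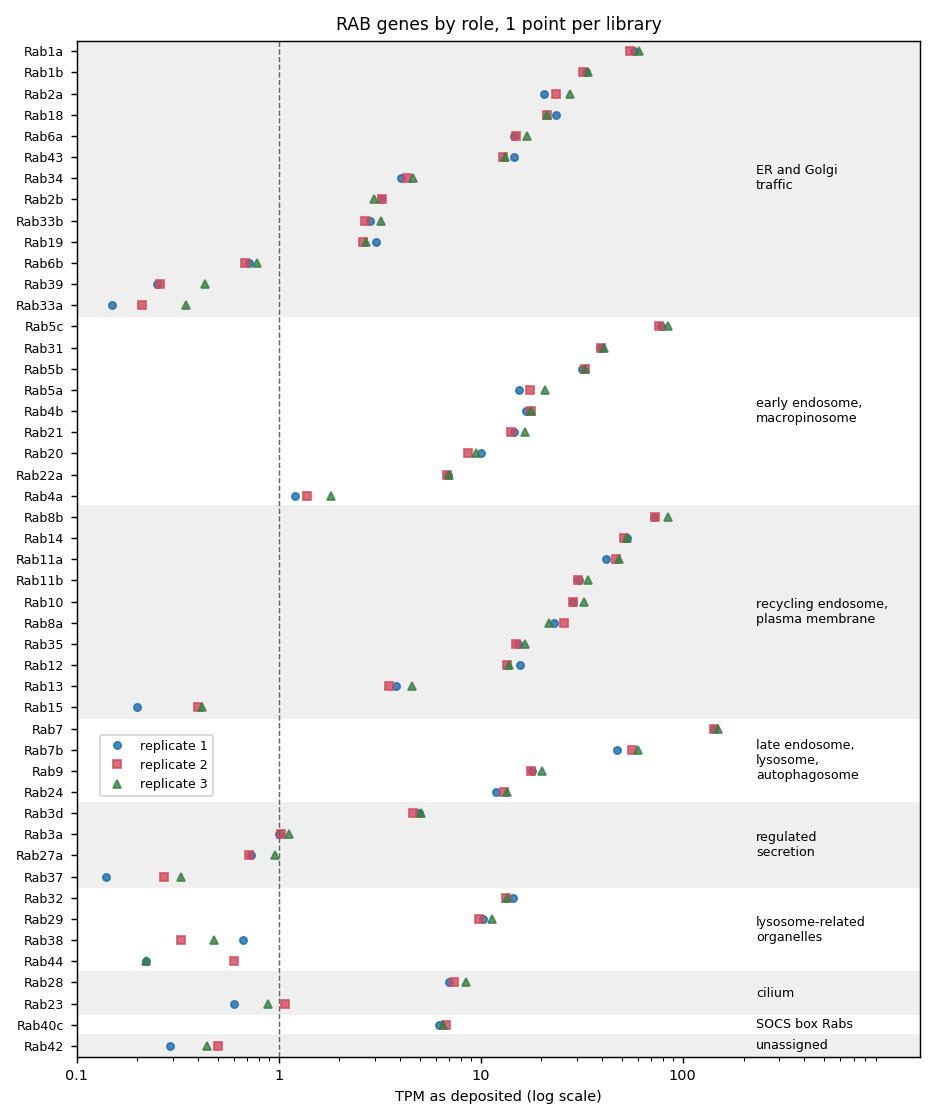
TPM (log scale) of the 48 RAB genes that averaged at least 0.1 TPM, 1 point per library, ordered by mean within 9 groups of cellular role (shaded in turn); the dashed line marks 1 TPM. Rab7 lies furthest right, at 142.2 to 150.25 TPM, and of the 4 regulated secretion genes shown Rab27a and Rab37 lie left of the line.

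The late endosomal group held the single most abundant RAB transcript. Rab7 (ENSMUSG00000079477.9, chr6:87999106-88045270, minus strand), which drives the fusion of late endosomes, phagosomes and autophagosomes with lysosomes, had 142.2, 142.4 and 150.25 TPM in replicates 1, 2 and 3. It stood above every other RAB gene in each library and at the 98.9th percentile of protein-coding genes. It alone made up 14.9% of the summed RAB TPM. Its paralog Rab7b (ENSMUSG00000052688.12, chr1:131688695-131715439, plus strand), known for late endosome to Golgi transport and, in mouse macrophages, for promoting the degradation of TLR4, had 47.5, 56.4 and 60.2 TPM. Rab9, which returns mannose 6-phosphate receptors from late endosomes to the Golgi, had 17.9, 17.8 and 20.2 TPM, and its paralog Rab9b had no count (limits of 0.0121, 0.0078 and 0.0105 TPM). Rab24, linked to autophagosomes, averaged 12.8 ± 0.821 TPM. The 5 genes of this group, of which 4 passed 1 TPM, summed to 231 ± 12.4 TPM.

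The early endosomal group was nearly complete. Rab5c had 78.3, 76.3 and 84.7 TPM, Rab5b had 31.9, 32.7 and 32.9 TPM, and Rab5a had 15.5, 17.5 and 20.8 TPM. All 3 organise early endosome fusion and are recruited to young phagosomes, and their levels did not overlap. Rab31, also called Rab22b and active between the trans-Golgi network and endosomes, had 38.9, 39.4 and 40.8 TPM, while its paralog Rab22a had 6.87, 6.81 and 6.98 TPM. Rab4b had 16.7, 17.7 and 17.8 TPM, but Rab4a, the other gene of this fast recycling pair, had 1.20, 1.38 and 1.82 TPM. Rab21, which carries integrins through endosomes, averaged 15.1 ± 1.32 TPM, and Rab20, found on macropinosomes and phagosomes, averaged 9.35 ± 0.684 TPM. In all 9 of 10 genes passed, with a sum of 220 ± 10.1 TPM. The exception was Rab17, an epithelial RAB with 3 counts over all libraries.

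The recycling and plasma membrane group summed to the most TPM of the role groups, 294 ± 14.2, with 9 of 11 genes past 1 TPM. Rab8b (ENSMUSG00000036943.9, chr9:66843664-66919687, minus strand) led it with 71.7, 72.5 and 84.98 TPM. Its paralog Rab8a (ENSMUSG00000003037.16, chr8:72161200-72183904, plus strand), which acts in exocytosis and on macropinosomes, had 23.1, 25.7 and 21.8 TPM. Rab14, which moves between the Golgi and endosomes and is found on phagosomes, had 53.2, 51.3 and 53.1 TPM. The recycling endosome pair followed, Rab11a with 41.5, 46.6 and 48.2 TPM and Rab11b with 30.8, 30.2 and 34.1 TPM. Rab10, reported to deliver TLR4 to the macrophage surface, had 28.6, 28.6 and 32.3 TPM. Rab35, of a fast recycling route, averaged 15.6 ± 0.878 TPM, Rab12, which sorts the transferrin receptor towards lysosomes, 14.3 ± 1.09 TPM and the junctional Rab13 3.97 ± 0.537 TPM. Rab15 was at 0.34 ± 0.122 TPM, and Rab25, an epithelial member of the Rab11 branch, had no count (limits of 0.0835, 0.0515 and 0.0705 TPM).

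The ER and Golgi group split into a high and a low set. Rab1a, which carries vesicles from the ER to the Golgi, had 57.5, 54.8 and 61.0 TPM, and Rab1b had 33.2, 32.1 and 34.0 TPM. Rab2a, of the ER to Golgi intermediate compartment and of lysosome fusion, had 20.6, 23.7 and 27.6 TPM, against 3.23, 3.26 and 2.96 TPM for Rab2b. Rab18, found on the ER and lipid droplets, averaged 22.1 ± 1.29 TPM, Rab6a, of retrograde Golgi traffic, 15.5 ± 1.25 TPM and Rab43 13.6 ± 0.886 TPM. Rab34, Rab33b and Rab19 lay between 2.61 and 4.61 TPM in the 3 libraries. The remaining 6 of the 16 genes were below 1 TPM in every library, from Rab6b at 0.71, 0.68 and 0.78 TPM down to Rab39b with 1 count. The group summed to 180 ± 7.95 TPM.

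Genes of regulated secretion were mostly low. Of 8 genes 2 passed, Rab3d with 4.93, 4.60 and 5.08 TPM and Rab3a, a RAB of synaptic vesicles, just inside the threshold with 1.01, 1.03 and 1.12 TPM. Rab27a, which docks secretory lysosomes and melanosomes, stayed below 1 TPM with 0.73, 0.71 and 0.96 TPM. Rab37 averaged 0.247 ± 0.0971 TPM, Rab26, Rab27b and Rab3b were at or below 0.05 TPM in every library, and Rab3c had no count. The 8 genes summed to 7.03 ± 0.480 TPM. Of the genes of lysosome-related organelles, Rab32 had 14.5, 13.4 and 13.5 TPM and Rab29, which recruits the kinase LRRK2 to membranes, averaged 10.5 ± 0.793 TPM. Rab38, which works beside Rab32 in melanosomes, had 0.67, 0.33 and 0.48 TPM, and Rab44, a large RAB known from granules of immune cells, 0.22, 0.60 and 0.22 TPM. The ciliary Rab28 averaged 7.58 ± 0.767 TPM. Rab23, which acts in Hedgehog signalling, was the 1 gene on both sides of the threshold, with 0.60, 1.07 and 0.89 TPM. Rab40c, part of a ubiquitin ligase through its SOCS box, averaged 6.50 ± 0.255 TPM, and Rab40b was at 0.02 TPM or less. Rab42 was placed in no group and had 0.29, 0.50 and 0.44 TPM.

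Neighbours in the order of mean TPM were often not separable. Of the 37 neighbouring pairs among the 38 genes that passed, 20 kept their order in all 3 libraries with a mean log2 ratio above its SD. Rab7 stood apart from Rab5c by 0.86 ± 0.04 on the log2 scale. Rab5c and Rab8b did not differ beyond their spread. Rab7b was separable neither from Rab1a above it nor from Rab14 below it, and Rab5b neither from Rab1b nor from Rab11b. In the middle of the order, Rab35 was not separable from Rab6a, Rab6a from Rab21, or Rab21 from Rab12. Of all 59 genes, 25 had at least 10 TPM in each library, and 11 averaged 30 TPM or more. Of the 21 genes that did not pass, 20 were below 1 TPM in every library, and 11 had fewer than 30 counts in all.

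Most paralogous sets leaned to 1 member. Differences of log2(TPM + 1) were taken within each library for the 14 pairs in which both genes had 30 counts or more, and all 14 had the same sign in the 3 libraries. The exact two-sided sign-flip permutation test gives p = 0.25 for each pair, the smallest that 3 libraries allow. The widest gaps were Rab32 over Rab38, 3.31 ± 0.11 (SD, n = 3), and Rab6a over Rab6b, 3.26 ± 0.07, which were within their spread of each other. Rab2a over Rab2b came to 2.58 ± 0.25 and Rab7 over Rab7b to 1.40 ± 0.14. In the other direction, Rab4a minus Rab4b was -2.91 ± 0.15, Rab22a minus Rab31 -2.37 ± 0.02 and Rab33a minus Rab33b -1.66 ± 0.07. Rab3a minus Rab3d was -1.51 ± 0.05. Within the Rab5 set, Rab5a minus Rab5c was -2.10 ± 0.15, Rab5b minus Rab5c -1.27 ± 0.07 and Rab5a minus Rab5b -0.83 ± 0.18. The gap was small in the Rab1 pair, 0.78 ± 0.04 for Rab1a over Rab1b, and in the Rab11 pair, 0.51 ± 0.10 for Rab11a over Rab11b. The scale understates differences of genes near 0, such as Rab38 and Rab33a.

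**Figure D2:**
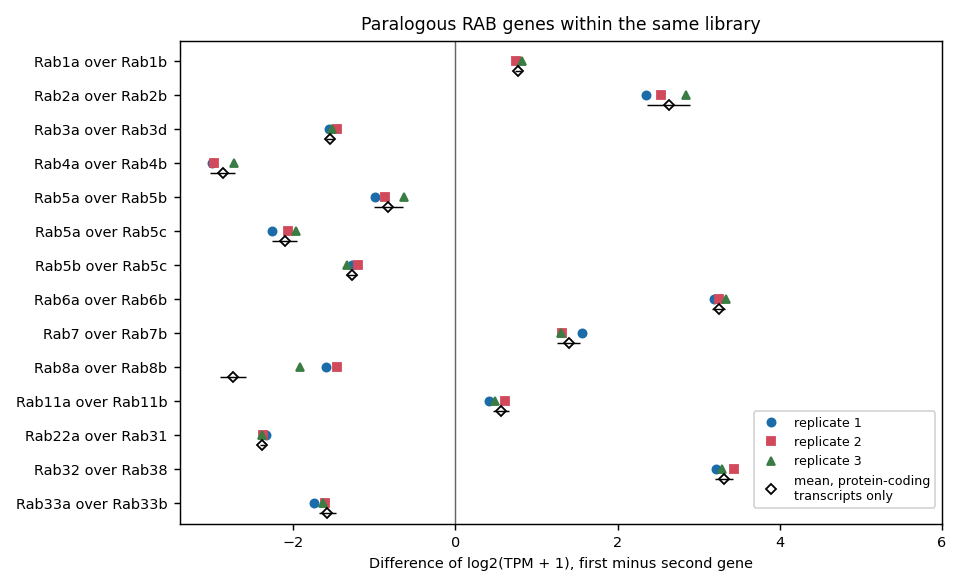
Difference of log2(TPM + 1) between paralogous RAB genes in the same library (coloured points, 1 per library), and the mean and SD of the same difference over protein-coding transcripts only (open diamonds). The open diamond lies apart from the coloured points for Rab8a over Rab8b, at -2.74.

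Of the 14 pairs, the Rab8 pair moved most when only transcripts annotated as protein-coding were kept. Over all transcripts, Rab8a minus Rab8b was -1.66 ± 0.23 on the log2(TPM + 1) scale, with Rab8a at 0.311 ± 0.050 of the Rab8b level. Over protein-coding transcripts alone it was -2.74 ± 0.16, with Rab8a at 10.5 ± 0.376 TPM, against 76.4 ± 7.43 TPM for Rab8b, a ratio of 0.139 ± 0.016. Rab8a was the 1 gene of the 38 with under 50% of its TPM in protein-coding transcripts, a state shared by 4.14% of protein-coding genes that averaged at least 1 TPM. The transcript Rab8a-202, annotated as a retained intron, held 51.7%, 60.1% and 52.5% of the Rab8a TPM in replicates 1, 2 and 3. The protein-coding Rab8a-201 held 47.4%, 39.9% and 47.5%. By expected counts the order turned round: Rab8a-202 had 232, 513 and 273 counts, against 3138, 4534 and 3398 for Rab8a-201, or 8.16% ± 1.75 of the gene, and no RAB gene was under 50%. The transcripts differ in length, 542 bases for Rab8a-202 and 4550 bases for Rab8a-201. TPM divides counts by an effective length, and these full lengths alone do not give the TPM shares above. The shares by TPM, and the wider Rab8 gap over coding transcripts, therefore also rest on the effective lengths, which were not examined for these transcripts.

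Rab8a-202 lies at chr8:72161359-72176057 on the plus strand (mm10). It has 5 exons, of which 414 bases are exonic in the coding transcript of 8 exons, and its last 128 bases run into the fifth intron of that transcript. The 60 bases around this boundary are shown because Rab8a-201 lacks the intron part, with exon bases in lower case and intron bases in capitals. Unspliced Rab8a RNA would hold the same bases, and reads over them were not examined.
Rab8a-202 (chr8:72175900-72175959, plus strand): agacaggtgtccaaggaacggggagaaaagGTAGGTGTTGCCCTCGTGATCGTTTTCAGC
The exonic part of Rab8a-202, 76.4% of its length, is the same sequence as in Rab8a-201, so its level rests on how the quantification divided shared reads. The tables in kallisto layout, made from the reads without the alignments, gave Rab8a-202 a larger share, 63.7% ± 4.18 of the gene's TPM, against 54.8% ± 4.66 in the tables in RSEM layout, made from alignments.

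**Figure D3:**
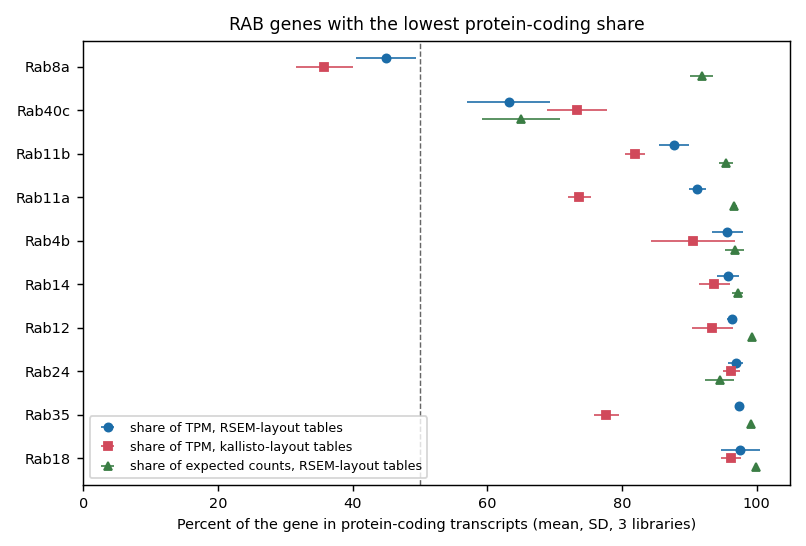
Percent of each gene in protein-coding transcripts (mean and SD over 3 libraries) for the 10 RAB genes with the lowest share among those that averaged at least 5 TPM, by TPM in both quantifications and by expected counts. Rab8a is left of the dashed 50% line by TPM, at 35.8% in the kallisto-layout and 44.9% in the RSEM-layout tables, and right of it by expected counts, at 91.8%.

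Other RAB genes were mostly made of 1 coding transcript. In 23 of the 38 genes that passed, 1 transcript held 90% or more of the TPM, and in 8 the leading transcript held less than 60%. The leading transcript was protein-coding in 37 genes and was the same in both quantifications in 37. Its length ran from 542 to 7155 bases, with a median of 2141. Rab40c had the next lowest coding share, 56.1%, 67.7% and 65.7% in replicates 1, 2 and 3, and the processed transcript Rab40c-205 held 42.3%, 31.8% and 33.3%. Its coding isoforms changed places between libraries: Rab40c-201 was at 0%, 59.2% and 51.7%, and Rab40c-209 at 37.2%, 0% and 9.26%. Rab43 did likewise, with Rab43-203 at 48.4%, 67.7% and 85.5%. In both genes the level of the whole gene was steadier than that of its isoforms.

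In Rab11b, a transcript annotated for nonsense-mediated decay, which would not give a full protein, held 17.9% ± 1.53 of TPM in the kallisto-layout tables and 12.1% ± 2.38 in the RSEM-layout tables. Rab35 differed more between quantifications, with 22.3% ± 1.88 in such a transcript in the kallisto-layout tables, while its coding share in the RSEM-layout tables was 97.3% ± 0.570. Rab7b was divided nearly evenly between coding isoforms of 4498 bases (Rab7b-202, 51.8% ± 1.25) and 1672 bases (Rab7b-201, 45.3% ± 0.836). Rab6a was likewise steady, with Rab6a-201 at 52.8% ± 0.819 and Rab6a-203 at 38.2% ± 0.125. In Rab11a and Rab18 a short isoform led by TPM but not by counts. Rab11a-201, of 595 bases, held 43.9% ± 5.41 of TPM and 18.7% of counts, and Rab18-203, of 729 bases, held 46.7% ± 3.49 of TPM and 12.7% of counts.

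The gene levels of both quantifications were set side by side after each was rescaled so that protein-coding genes alone made up the TPM total. The median ratio of the kallisto-layout to the RSEM-layout level was 0.992 over the 38 genes that passed, and 37 lay between 0.8 and 1.25. Rab11a was the exception, with 248.5, 267.8 and 232.7 rescaled TPM in the kallisto-layout tables, against 171, 194 and 184 in the RSEM-layout tables, a ratio of 1.37. Next were Rab18 with 1.23, Rab8a with 1.18, Rab7b with 1.12, Rab19 with 1.12 and Rab35 with 1.11. The lowest ratios were 0.888 for Rab2b and 0.894 for Rab24.

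**Figure D4:**
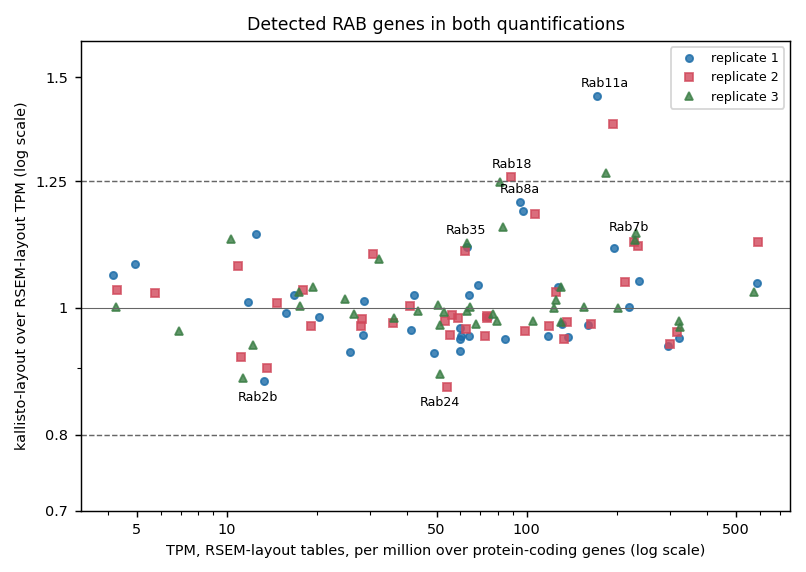
Ratio of the kallisto-layout to the RSEM-layout level (both rescaled over protein-coding genes, log scale) against the RSEM-layout level (log scale) for the 38 RAB genes past 1 TPM, 1 point per gene and library; dashed lines mark 0.8 and 1.25. Rab11a is above the upper line in all 3 libraries.

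Several RAB genes share sequence with other genes. Overlaps were taken over the same coding transcripts as the coding ends. On the same strand, the annotated gene Gm45140 covers 90.4% of the Rab43 transcript (0.597 ± 0.236 TPM for Gm45140), and Gm21983 covers 85.2% of that of Rab4b (listed at 0 TPM). On the opposite strand, Gm43766 covers 70.9% of the Rab2b transcript and was at 0.0167 TPM. Prelid1 covers 66.4% of the Rab24 transcript and was itself at 57.6 ± 5.56 TPM, and Mrpl48 covers 22.0% of that of Rab6a, at 8.46 ± 0.296 TPM. E230013L22Rik covers 25.6% of that of Rab20, at 0.60 TPM, and Gm38160 covers 17.6% of that of Rab33b, at 0.01 TPM. Whether counting used the strand is not given in the sources used here, so the reads of Rab24 and Prelid1, or of Rab6a and Mrpl48, may not be fully told apart. Among copies elsewhere, 32.4% of the 31-base words of Rab11b also occur in the pseudogene Rab11b-ps2 and 17.8% of those of Rab7 in Rab7-ps1. Between RAB genes themselves, no such transcript shared more than 40 such words with any 1 other member.

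The replicates were close, but many RAB genes differed between them beyond counting error. Of 48 RAB genes with 30 counts or more, 27 (56.3%) were called by a chi-square test of counts against TMM-scaled library sizes (adjusted p under 0.05 over all genes), near the 50.1% of all 13494 genes tested. Without replicate 1 the test called 16 RAB genes, and without replicate 3 it called 17, where 27.5% and 35.5% of all genes tested were called. With a summed count of 300 or more, 23 of 40 RAB genes (57.5%) were called, near the 55.6% of all genes tested at that setting. Most of the called differences were small. Among the 38 genes that passed 1 TPM, 22 were called. Of these, 19 differed by less than 1.25-fold between the highest and the lowest library. The share called over all protein-coding genes past 1 TPM is not given here. The median ratio of highest to lowest library was 1.11 for these 38 genes and 1.12 for protein-coding genes that passed 1 TPM. The median coefficient of variation of TPM was 6.66%, against 7.96%. The median biological coefficient of variation from edgeR was 7.21%, against 8.23%. These sets were not matched for level, with medians of 15.7 TPM for the RAB genes and 7.59 TPM for the protein-coding genes.

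**Figure D5:**
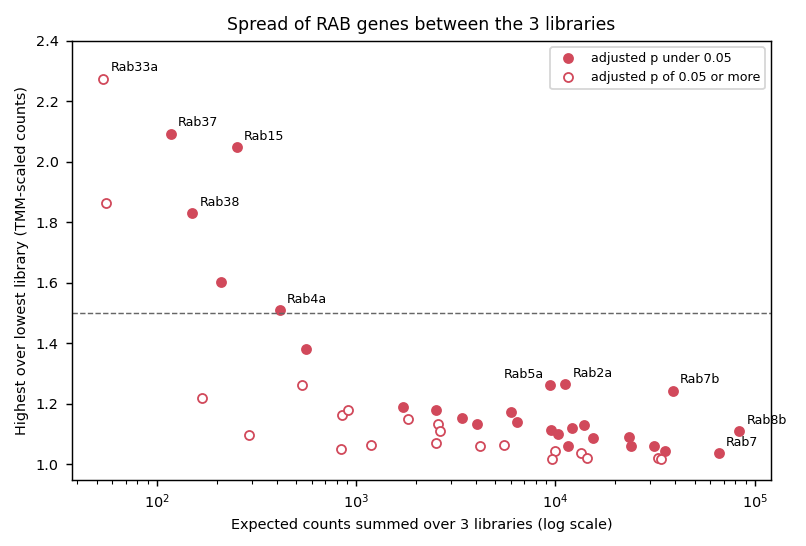
Ratio of the highest to the lowest library (TMM-scaled counts) against the expected counts summed over the 3 libraries (log scale) for the 48 RAB genes tested; filled points had an adjusted p under 0.05, and the dashed line marks 1.5. Above 1000 counts all points lie under the line, and Rab7b, Rab2a and Rab5a stand out among the filled ones.

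The strongest departure among abundant genes was that of Rab7b, with 11032, 13723 and 12993 TMM-scaled counts in replicates 1, 2 and 3, a ratio of 1.24 (adjusted p = 6.33e-61, chi-square test, 3 libraries, all genes). Replicate 1 was low in it. Rab2a had 3160, 3778 and 3995 scaled counts, a ratio of 1.26 (adjusted p = 3.80e-19), and Rab5a had 2692, 3137 and 3395, also 1.26 (adjusted p = 2.11e-15). Replicate 1 was the lowest and replicate 3 the highest in both. Rab8b differed by 1.11 (adjusted p = 2.95e-31), while Rab5c, with adjusted p = 0.427, and Rab1a, with adjusted p = 0.526, were not called. Rab4a was the 1 gene past 1 TPM that was called with a ratio of 1.5 or more, with 109, 132 and 164 scaled counts and a ratio of 1.51 (adjusted p = 0.0131). Which library is highest depended on the scale. On deposited TPM, 28 of the 38 genes were highest in replicate 3, as were 68.0% of protein-coding genes past 1 TPM. After rescaling over protein-coding genes 13 were, and on TMM-scaled counts 15.

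The machinery that moves RAB proteins on and off membranes was expressed throughout. All 8 genes of this cycle passed 1 TPM, against 41.8% of protein-coding genes, with a list median of 7.11 ± 0.195 TPM. Gdi2, a GDP dissociation inhibitor, had 149, 140.4 and 170 TPM, in the range of Rab7 itself. Rabac1, a prenylated RAB acceptor, averaged 39.9 ± 1.51 TPM. The geranylgeranyl transferase subunits Rabggtb and Rabggta were at 9.58 ± 0.313 and 3.57 ± 0.0987 TPM, and the escort proteins Chm and Chml at 4.64 ± 0.391 and 1.39 ± 0.0757 TPM. The counting test called 3 of the 8, against 50.1% of all genes tested.

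Of 45 exchange factors, 37 passed 1 TPM, with a list median of 7.17 ± 0.630 TPM. Rab3il1, a factor for Rab8 and Rab3a, led with 34.8 ± 1.92 TPM, and Dennd4c, a factor for Rab10, had 31.3 ± 1.30 TPM. Gapvd1, which acts on Rab5 and Rab31, had 26.98 ± 1.70 TPM. Trappc1 and Trappc3, subunits of the TRAPP complex that activates Rab1, both had 24.2 TPM. The lowest were Dennd3, at 0.0367 TPM, and Rin1, at 0.03 TPM. Of 34 GTPase-activating proteins, 31 passed, with a median of 5.57 ± 0.276 TPM. Tbc1d13, which acts on Rab35, led with 29.3 ± 0.662 TPM. Next were Tbc1d20, which acts on Rab1, with 20.6 ± 1.05 TPM, and Tbc1d4, which acts on Rab10, with 19.8 ± 1.03 TPM. Tbc1d10c was at 0.107 TPM and Sgsm1 was listed at 0. The counting test called 21 of 45 exchange factors and 21 of 33 activating proteins tested, against 50.1% of all genes.

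Effectors were less complete, with 35 of 47 past 1 TPM and a median of 4.74 ± 0.358 TPM. Myo5a, an actin motor that binds several RABs, had 206, 204 and 208 TPM, above Rab7 in every library. Rilpl2, which binds phosphorylated Rab8 and Rab10, had 31.9 ± 1.23 TPM, and Plekhm1, which links Rab7 to lysosome tethering, had 28.9 ± 1.08 TPM. Rab11fip5, of the Rab11 family of effectors, had 23.4 ± 2.30 TPM and Ankfy1, a Rab5 effector of macropinosomes, 21.3 ± 0.681 TPM. Sytl5 and Exph5, both effectors of Rab27, were listed at 0. The counting test called 17 of 38 effectors, against 50.1% of all genes tested. Of 5 kinases and phosphatases of RAB proteins, 4 passed. Ppm1h, a phosphatase of Rab8a and Rab10, had 19.1 ± 0.750 TPM, and Tbk1, a kinase of TLR signalling that can also phosphorylate Rab7, had 16.4 ± 0.302 TPM. Lrrk1, a Rab7 kinase, had 5.56 ± 0.469 TPM. Lrrk2, which phosphorylates Rab8a, Rab10 and Rab29, had 0.81, 0.83 and 1.10 TPM and so missed the threshold.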

How the data were processed

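Per the file headers and accompanying notes, the authors deposited expected counts and TPM per gene and transcript, derived from alignments to the transcriptome of mm10 with annotation M21, in the column layout of RSEM. They also deposited estimated counts and TPM per transcript derived from the reads directly, in the layout of kallisto. The sources used here give neither the tools and versions nor the strand setting. Deposited TPM is scaled over all entries, so the level of a gene also depends on entries outside the protein-coding genes. Which RNAs held that part of the TPM was not tested. The deposited effective lengths were used for the limits of 3 counts.

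The members, the roles and lists, the rule for named genes and the alternatives were chosen with earlier results of these data known. The rule named the 12 highest members, the 4 nearest to 1 TPM on each side, all paralogs, members with a called spread of 1.5-fold or more, those with a low coding share or a large ratio between quantifications, and of each list up to 6 highest and 2 lowest genes. All 139 genes of the 5 lists matched a symbol. A gene passed at 1 TPM in every library. Expected counts were rounded for a chi-square test against edgeR TMM library sizes (summed count of 30 or more, Benjamini-Hochberg at 0.05 over all genes). The test measures departure from counting error only. It was run on simulated counts that held counting error and planted changes, which cannot show how it behaves under wider spread. Spread was sized by an intercept-only edgeR fit over the same genes. Paralogs were compared on log2(TPM + 1), with a pseudocount of 1. Alternatives varied scale, quantification, filters, size factors (DESeq2), pseudocount and the libraries used. The tools were edgeR 4.0.16 and DESeq2 1.42.0 in R 4.3.3, and Python 3.11.15 with pandas 2.3.3, scipy 1.17.1, numpy 2.4.6 and matplotlib 3.10.9. Some results are not reported here.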

Additional observations from a re-analysis of the deposited data

Results flagged for a closer look

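Noncoding genes named after RAB genes were outside the family as defined, and 4 of them had counts above the limit of 3 that a count of 0 allows. Rab10os, an antisense gene that overlaps 143 exonic bases of the leading Rab10 transcript, had 2458.07 expected counts summed over the libraries and 5.31, 5.46 and 5.84 TPM in replicates 1, 2 and 3. Rab7-ps1, a pseudogene copy of Rab7, had 96.0 summed counts in the RSEM-layout tables, and 0, 1.53 and 2.90 counts in the kallisto-layout tables. Rab11b-ps2 had 31.54 summed counts, and 0, 0 and 11.5 in the kallisto-layout tables. Rab26os had 28.0 summed counts and 1.08, 1.06 and 0.85 TPM, while Rab26 itself was at 0.05, 0.02 and 0.02 TPM. Rab5a-ps and Rab9b-ps1 had no count.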

How the results depend on the processing

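The number of RAB genes past 1 TPM was 38 and lay between 33 (kallisto-layout tables) and 47 (10 counts or more in every library); it was 44 after rescaling over protein-coding genes. The median RAB level, 6.50 TPM, follows the scale: it was 26.2 after rescaling over protein-coding genes, 2.93 in the kallisto-layout tables, 25.4 in those tables after the same rescaling (an alternative chosen after seeing the data) and 15.7 over genes at a mean of 1 TPM or more. The 27 calls of the counting test became 16 to 21 when 1 library was left out, 16 without replicate 1, 21 without replicate 2 and 17 without replicate 3, where 27.5%, 42.2% and 35.5% of all genes tested were called from fewer samples. Under the other alternatives they ran from 23 of 40 RAB genes tested (summed count of 300 or more) to 34 of 51 (kallisto-layout tables). Of all genes tested, 55.6% and 58.9% were called there. Without a filter on low counts 24 of 56 RAB genes were called, against 31.7% of all genes tested. By expected counts, 0 genes were under 50% in protein-coding transcripts, against 1 by TPM. All 84 alternative values of the paralog differences kept their sign. The 5 list counts stayed within 1.5 times. No paired analysis of conditions was possible because the series has 1 group. With 3 libraries, the exact sign-flip test of a paralog pair can give no p below 0.25.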

Other observations

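Among the effectors, those of Rab27 were mostly near 0. They were picked out after their values were seen. Of 11 effector genes of the Rab27 branch, 9 were below 1 TPM in every library. So were 12 of all 47 effectors and 12301 of 21901 protein-coding genes. The 9 included all 5 synaptotagmin-like genes Sytl1 to Sytl5 (0.03 TPM or less in every library) and Mlph at 0.07, 0.03 and 0.02 TPM. Rph3a, Exph5 and Myrip were at 0.01 TPM or less. The other 2 were Unc13d, a priming factor of granule release, with 5.40, 5.10 and 6.00 TPM, and Myo5a, the motor that Mlph links to Rab27a, at 206 TPM. Rab27a and Rab27b themselves averaged 0.80 and 0.02 TPM.

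Rab7b and Rab29 lie on the same strand of chromosome 1, at 131688695-131715439 and 131867224-131872887 (mm10). Rab7b averaged 54.7 ± 6.54 TPM and Rab29 10.5 ± 0.793 TPM. On TMM-scaled counts Rab7b was lowest in replicate 1 (ratio of highest to lowest library 1.24), and Rab29, with a ratio of 1.07, was not called by the counting test (adjusted p = 0.463).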
